A study of Mus musculus with 18 samples.

Results

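Genes that mark or control adipocyte progenitors were followed through RNA-seq of 3 mouse fat depots. The 10 genes, Pdgfra, Pdgfrb, Dpp4, Pi16, Cd34, Ly6a, Dlk1, Zfp423, Thy1 and Cd55, were chosen by symbol from the 25124 genes in the count tables. No rule on their values was used, but earlier results of these data were known. All 10 were found, and each had at least 1 count in some library. On mm10, Zfp423 lies at chr8:87661810-87959595, Dpp4 at chr2:62330073-62412231 and Pi16 at chr17:29318882-29328902, and the counts of every gene cover its exons.

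Male mice, wildtype (WT) or lacking caspase-6 (C6KO), gave the subcutaneous inguinal depot (iWAT), the visceral epididymal depot (eWAT) and brown fat (BAT), with 3 libraries for each depot and genotype and 18 in all. Every mouse, WT or C6KO, was on the C57BL/6J background and had eaten a high fat diet (HFD, 60% of calories as fat) for 12 weeks, starting at 10 to 14 weeks of age, so no group on a normal diet was part of the data. Caspase-6 is an executioner caspase, a protease of programmed cell death. C6KO mice lack it in every cell type, so that an effect within progenitors and one that reaches them from other cells cannot be told apart.

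New adipocytes arise from fibroblast-like cells of the stroma, which lie around blood vessels and in the connective tissue that wraps a fat depot. These cells carry the receptor PDGFRα and surface proteins such as CD34 and SCA1, and the earliest of them also carry DPP4, PI16 and CD55. As they commit to the adipocyte fate they come under the control of transcription factors such as ZFP423, and they lose the inhibitor PREF1, the product of Dlk1. During HFD feeding progenitors of the visceral depot can give rise to new fat cells, while other stromal cells turn towards inflammation and fibrosis.

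Start sites of 7 of the 10 genes matched RefSeq's promoter sequences for mouse (build GRCm38.p6, of which mm10 is the other name), which hold 250 bases before and 50 after each start. Those of 3 genes are shown, because Zfp423 is the member whose C6KO difference differed between depots, and Dpp4 and Pi16 had the largest estimated C6KO differences in iWAT. Each is the 250 bases before the start of the transcript that was counted, read 5′ to 3′ on the strand of the gene, with matches to the motifs searched in capitals. The Zfp423 sequence lies at chr8:87959596-87959845 on the minus strand, that of Dpp4 at chr2:62412232-62412481 on the minus strand, and that of Pi16 at chr17:29318632-29318881 on the plus strand.
Zfp423: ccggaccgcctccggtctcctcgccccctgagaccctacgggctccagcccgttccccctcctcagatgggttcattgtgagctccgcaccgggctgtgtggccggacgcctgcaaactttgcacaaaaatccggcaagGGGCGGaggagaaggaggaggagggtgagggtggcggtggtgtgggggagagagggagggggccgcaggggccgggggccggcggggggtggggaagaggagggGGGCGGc
Dpp4: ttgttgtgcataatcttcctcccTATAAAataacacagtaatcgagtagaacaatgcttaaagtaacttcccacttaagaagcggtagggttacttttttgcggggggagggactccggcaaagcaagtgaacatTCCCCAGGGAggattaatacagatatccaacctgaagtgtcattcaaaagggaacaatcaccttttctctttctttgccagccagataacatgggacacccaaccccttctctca
Pi16: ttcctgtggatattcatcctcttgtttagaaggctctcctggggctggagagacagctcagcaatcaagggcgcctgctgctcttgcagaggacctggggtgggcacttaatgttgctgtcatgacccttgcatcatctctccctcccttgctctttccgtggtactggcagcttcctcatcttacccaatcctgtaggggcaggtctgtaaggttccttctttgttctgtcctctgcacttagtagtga

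The motifs searched, on both strands and over the whole 300 bases, were GGGCGG (the GC box, bound by SP1 and its relatives), TATAAA (the TATA box) and the palindromic EBF motif (EBF factors are early regulators of the adipocyte lineage). None of the matches in the printed sequences overlap one another. Zfp423 held 2 GC boxes before this start, where 71.6% of the bases were G or C, and 1 before its second start in the table. Cd55 also held 2 GC boxes, and Pdgfra, Dpp4, Pi16, Cd34 and Dlk1 held 0, in a table where 35.7% of all 32851 promoters of this length had at least 1. In a check of orientation, the bases after the Pdgfra start matched no annotated transcript of that gene. The Dlk1 start was that of the transcript counted in the white depots, and the start of the one counted in BAT was not searched. Dpp4 held the TATA box letters far from the start site and 1 EBF motif, the second run of capitals, which 13.6% and 0.904% of all promoters held. Pi16 held none of the 3 motifs. A match is only a run of letters, and no binding was measured.

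RNA in these libraries came from whole tissue, so fewer cells of a type and less RNA per cell cannot be told apart. The 6 libraries of iWAT held 16506034 to 19043523 counts each, those of eWAT 16717201 to 19139694, and those of BAT 7803108 to 12428683, so a gene of equal abundance was counted with fewer reads in BAT. Levels are given as CPM, the counts scaled to a common library size after TMM normalization. A gene was called when edgeR's quasi-likelihood test gave a Benjamini-Hochberg adjusted p below 0.05, over all genes tested in the comparison, and the fold change was estimated at 1.5 or more. The authors compared genotypes with DESeq2 at the same limits, which is an alternative here. Casp6 checked the labels: it was at 16.2 to 20.8 CPM in the WT libraries of iWAT and eWAT and at 3.85 to 8.09 CPM in the C6KO ones, and in BAT it was at 11.9 to 21.2 CPM in WT and 3.32 to 7.61 CPM in C6KO. It was called in eWAT (log2 difference -1.85, adjusted p = 0.0132) and, at adjusted p of 0.0751 and 0.0671, not in iWAT or BAT. The depots also carried their own marks, with 6 brown adipocyte markers summing to 5999.9 to 14339 CPM in BAT and to at most 33.7 CPM in any white library, and 6 mesothelial markers to 45.3 to 209 CPM in eWAT and at most 6.86 CPM elsewhere.

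One library stood apart. In BAT WT replicate 2 the 6 skeletal muscle markers summed to 35436 CPM, against 45.0 and 1644 CPM in WT replicates 1 and 3 and 421 to 6994 CPM in the C6KO libraries of BAT. Its 9 T and B lymphocyte markers summed to 109 CPM, against 4.31 to 10.1 CPM in the other 5 BAT libraries. Of the 10 progenitor genes, 4 were at least 2-fold above the mean of the other WT BAT libraries in it (Dpp4 5.24-fold, Pi16 5.39-fold, Cd55 2.76-fold and Thy1 2.03-fold), where 11.5% of 15866 genes were that high. The members' C6KO differences in BAT are therefore given with and without this library, as are the values between depots that it moved most.

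**Figure D1:**
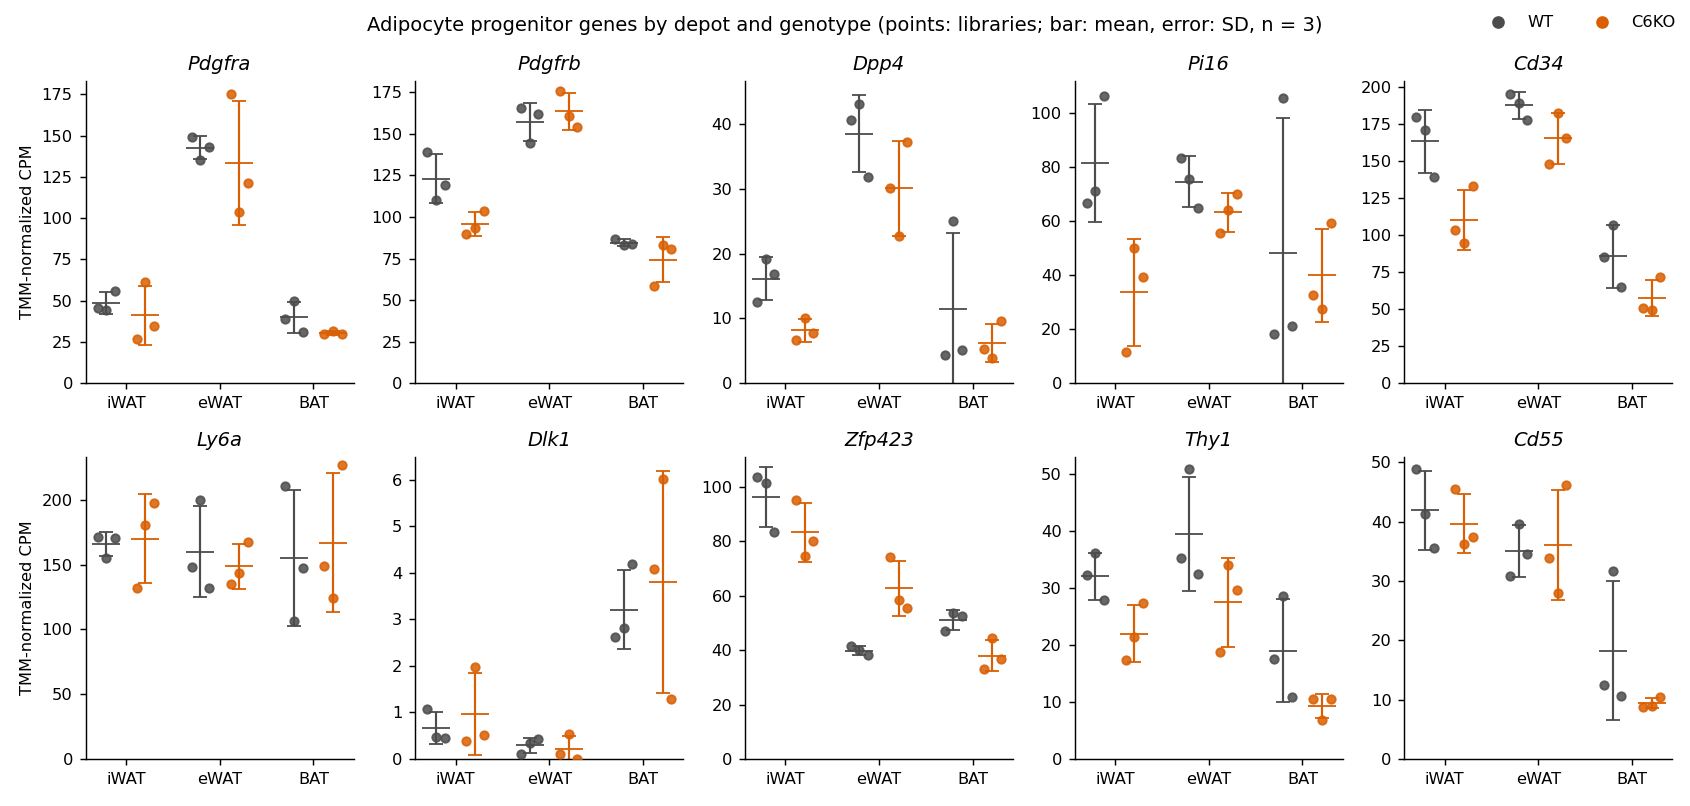
TMM-normalized CPM (vertical axes, from 0) of the 10 progenitor genes by depot in WT (grey) and C6KO (orange) mice; points are libraries, the bar is the mean and the error is the SD of 3 libraries, with lower errors that would pass below 0 ending there. In eWAT the 3 C6KO libraries of Zfp423 lie above the 3 WT ones, in BAT they lie below them, and 1 WT library of BAT is far above the others for Dpp4, Pi16 and Cd55.

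Divided by transcript length, the 10 genes spanned a wide range in WT tissue. Ly6a, which encodes the surface protein SCA1 and is also made by endothelial cells, was the most abundant in every depot, at 167 ± 9.27 CPM per kb in iWAT, 161 ± 35.6 in eWAT and 156 ± 52.7 in BAT (SD, n = 3). Cd34, which encodes a sialomucin of stromal and endothelial cells, came next, at 62.6 ± 8.16, 71.9 ± 3.43 and 32.9 ± 8.10 CPM per kb. In iWAT Pi16 followed at 36.4 ± 9.76 CPM per kb, then Pdgfrb at 22.8 ± 2.75, and Zfp423 (19.6 ± 2.27), Thy1 (18.6 ± 2.39) and Cd55 (16.6 ± 2.63) formed a run in which neighbours differed by less than 1 SD. Pdgfra was at 7.40 ± 0.991, Dpp4 at 3.08 ± 0.642 and Dlk1 at 0.142 ± 0.0749 CPM per kb. In eWAT the step from Zfp423 to Dpp4 (8.14 ± 0.346 and 7.36 ± 1.12 CPM per kb) was within the spread, and Pdgfra stood at 21.7 ± 1.07, beside Thy1 at 22.9 ± 5.76. In BAT Pi16, Dpp4, Thy1 and Cd55 had SDs of 22.3, 2.24, 5.23 and 4.64 around means of 21.6, 2.20, 10.99 and 7.23 CPM per kb, so their order there was not resolved.

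The first question was whether the loss of caspase-6 in mice on an HFD went with other levels of progenitor genes in each depot. In iWAT Dpp4 and Pi16, and with them Cd34, Thy1 and Pdgfrb, were lower in every C6KO library than in any WT library. Cd55, like Dpp4 and Pi16 a gene of the earliest progenitors, overlapped between the genotypes there (log2 difference -0.07, SE 0.16). Of the 9 members tested 0 passed the threshold. Dlk1, with 7 to 36 counts per library in iWAT, was too low to be tested there. Of all 14533 genes tested in iWAT, 0.0275% were called.

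Dpp4, a dipeptidyl peptidase on the surface of the earliest progenitors, was at 12.5, 19.2 and 16.8 CPM in the WT libraries of iWAT and at 6.67, 10.1 and 7.80 CPM in the C6KO ones. The difference was -0.97 on the log2 scale (SE 0.23), with an adjusted p of 0.154. In whole tissue the cells that made the Dpp4 RNA were not identified, here or in the other depots. T and B lymphocyte markers summed to 8.66 to 21.1 CPM in WT and 5.60 to 24.4 CPM in C6KO libraries of iWAT. Their part in the Dpp4 values was not tested. Pi16, a peptidase inhibitor secreted or anchored at the surface of fibroblasts around vessels, was at 66.7, 71.2 and 107 CPM in WT and at 11.7, 49.96 and 39.4 CPM in C6KO. C6KO replicate 1 was the lowest of these by far, and the difference was -1.27 (SE 0.49, adjusted p = 0.276). For both genes the WT and C6KO libraries did not overlap.

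Cd34 was at 179.8, 171 and 139 CPM in WT and 103, 94.6 and 133 CPM in C6KO of iWAT, a log2 difference of -0.56 (SE 0.16, adjusted p = 0.175). Thy1, which encodes the glycoprotein CD90 of fibroblasts and T cells, was at 32.3, 36.1 and 27.8 CPM in WT and 17.4, 21.4 and 27.4 CPM in C6KO, a log2 difference of -0.54 (SE 0.18, adjusted p = 0.214). For both, C6KO replicate 3 came close to the lowest WT library without reaching it. The receptor gene Pdgfrb, shared by progenitors and the mural cells that wrap vessels, was at 139, 110.4 and 119 CPM in WT and 89.6, 93.4 and 104 CPM in C6KO, a log2 difference of -0.36 (SE 0.13, adjusted p = 0.228).

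The other 4 members tested in iWAT overlapped between the genotypes. Pdgfra, the receptor gene that defines the stromal progenitor as a whole, was at 45.4, 44.3 and 56.1 CPM in WT and 27.0, 61.2 and 34.9 CPM in C6KO, with the highest and the lowest library both in C6KO (log2 difference -0.24, SE 0.29). Zfp423, Cd55 and Ly6a had log2 differences of -0.20 (SE 0.14), -0.07 (SE 0.16) and 0.04 (SE 0.16). In counts, 5 of the 9 members tested did not overlap between the groups, against 23.2% of all genes tested, and the same 5 had an unadjusted p below 0.05, against 16.5%. Their median log2 difference was -0.36, against 0.03 over all genes, and 8 of 9 estimates were below 0.

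For the alternatives that follow, the share of all genes called is not given here, so their counts have no background. With DESeq2, the authors' tool, in place of edgeR 1 of the 9 was called, Dpp4 (-0.98, adjusted p = 0.0107). Without C6KO replicate 3 edgeR called 2, Cd34 (-0.73, adjusted p = 0.0173) and Thy1 (-0.74, adjusted p = 0.0304). Macrophage markers moved with these genes: 10 of them summed to 1539 to 1734 CPM in the WT libraries of iWAT. In C6KO replicates 1, 2 and 3 they summed to 424.5, 446.5 and 1192 CPM, so the library left out for Cd34 and Thy1 was the C6KO one nearest WT. For these markers 10 of 10 estimates were below 0, and their part in the differences, or in the calls gained without that library, was not tested. The 8 adipocyte markers summed to 25803 to 27192 CPM in WT and 30540.5 to 33893 CPM in C6KO, with 6 of 8 estimates above 0, and their part was not tested either. The 12 pan-stromal genes (matrix genes and transcription factors shared by fibroblasts) had 9 of 11 estimates below 0 with a median of -0.61 and 0 called, and their sum overlapped between the genotypes (15437 to 16917 CPM in WT and 14100.4 to 20043 CPM in C6KO).

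In eWAT Zfp423 was the one member whose WT and C6KO libraries did not overlap, and it was higher in C6KO, where its estimates in iWAT and BAT were below 0. Zfp423 encodes a zinc finger factor that commits mesenchymal cells to the adipocyte fate and, in mature white fat cells, holds back the thermogenic programme. It was at 41.5, 39.9 and 38.1 CPM in WT and at 74.3, 58.4 and 55.6 CPM in C6KO, and every C6KO library was above every WT one. The log2 difference was 0.66 (SE 0.13), 1.58-fold, and at an adjusted p of 0.0527 it missed the threshold, so that 0 of the 9 members tested were called, beside 0.746% of all 14889 genes. The call was made by DESeq2, the authors' tool (adjusted p = 0.00103), without a filter on low counts (0.0235) and without C6KO replicate 2 (0.0369). It was also made with the replicate number as a block, though the labels do not say what the numbers share. The estimate stayed between 0.53 and 0.74 in every alternative tried. Markers of other cells were higher in the C6KO libraries of eWAT as well: 8 adipocyte markers summed to 8241 to 9018 CPM in WT and 10911 to 16620 CPM in C6KO, and 8 endothelial markers to 579 to 672 CPM in WT and 843 to 1011 CPM in C6KO. Their part in the difference of Zfp423 was not tested.

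The early progenitor genes overlapped between the genotypes in eWAT. Dpp4 was at 40.7, 43.1 and 31.9 CPM in WT and 30.2, 22.7 and 37.3 CPM in C6KO (log2 difference -0.35, SE 0.19, adjusted p = 0.398), and Pi16 at 83.6, 75.7 and 64.8 CPM in WT and 55.7, 64.0 and 70.1 CPM in C6KO (-0.23, SE 0.13, adjusted p = 0.394). Pdgfra was at 149, 135 and 143 CPM in WT and at 175, 104 and 121 CPM in C6KO, so the C6KO libraries lay on both sides of the WT ones (-0.09, SE 0.18). Thy1 had the lowest estimate, -0.52 (SE 0.25, adjusted p = 0.338), from 35.2, 50.9 and 32.4 CPM in WT and 18.9, 34.1 and 29.7 CPM in C6KO.

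The remaining members of eWAT lay close to 0, with log2 differences of -0.18 for Cd34 (SE 0.11), -0.10 for Ly6a (SE 0.16), 0.06 for Pdgfrb (SE 0.10) and 0.05 for Cd55 (SE 0.19). Only 1 of 9 members, Zfp423, did not overlap or had an unadjusted p below 0.05, where 23.2% and 17.6% of all genes did. Their median was -0.10, against -0.01 over all genes. T and B lymphocyte markers, among whose cells Thy1 is also made, summed to 110.2 and 147 CPM in WT replicates 2 and 3 and to 196 CPM in C6KO replicate 3 of eWAT, against 13.2 to 26.4 CPM in the other 3 libraries. Macrophage markers summed to 4971 to 6022 CPM in WT and 3366 to 4138 CPM in C6KO, and the part of either in the members' values was not tested.

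In BAT 8 of the 10 members had estimates below 0, and Thy1, Cd55 and Zfp423 were lower in every C6KO than in any WT library, but 0 of the 10 were called, beside 1.24% of all 13595 genes. Thy1 was at 17.5, 28.7 and 10.8 CPM in WT and 10.5, 6.83 and 10.6 CPM in C6KO (log2 difference -1.04, SE 0.37, adjusted p = 0.265). Cd55, which encodes a complement inhibitor carried by early progenitors, was at 12.4, 31.7 and 10.6 CPM in WT and 8.82, 8.99 and 10.4 CPM in C6KO (-0.97, SE 0.43, adjusted p = 0.387). In both genes the lowest WT library sat just above the highest C6KO one, and WT replicate 2 made most of the gap.

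Zfp423 in BAT was at 47.0, 53.6 and 52.5 CPM in WT and at 33.0, 44.4 and 36.7 CPM in C6KO (log2 difference -0.42, SE 0.17, adjusted p = 0.328). Cd34 was at 85.6, 107 and 64.8 CPM in WT and 50.9, 49.8 and 71.5 CPM in C6KO (-0.58, SE 0.23, adjusted p = 0.315). Unlike Cd55 and Thy1, Zfp423 did not stand out in WT replicate 2. The counts were 3 of 10 members that did not overlap, against 20.2% of all genes, and 3 of 10 with an unadjusted p below 0.05 (Thy1, Cd34 and Zfp423), against 13.2%.

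Dpp4 and Pi16 in BAT rested on that 1 library. Dpp4 was at 4.38, 25.1 and 5.18 CPM in WT and 5.24, 3.86 and 9.54 CPM in C6KO, and Pi16 at 18.3, 106 and 21.0 CPM in WT and 32.7, 27.6 and 59.5 CPM in C6KO. Their log2 differences of -0.93 (SE 0.81) and -0.30 (SE 0.88) became 0.40 and 1.05 without WT replicate 2. Without it Thy1 was at -0.56, Cd55 at -0.25, Cd34 at -0.35 and Zfp423 at -0.35, and 0 of the 10 were called.

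The last 4 members in BAT differed little or were noisy. Pdgfra was at 39.0, 49.7 and 30.7 CPM in WT and 29.8, 31.7 and 30.1 CPM in C6KO (-0.38, SE 0.20), Pdgfrb had a log2 difference of -0.18 (SE 0.17) and Ly6a one of 0.12 (SE 0.28). Without WT replicate 2 these 3 were at -0.15, -0.16 and -0.0603. Dlk1, the gene of the secreted and membrane-bound inhibitor PREF1, was at 2.63, 2.81 and 4.19 CPM in WT and 4.09, 6.02 and 1.29 CPM in C6KO (0.26, SE 0.52, and 0.19 without WT replicate 2), from 12 to 67 counts per library. The macrophage markers summed to 649 to 828 CPM in WT and 270.2 to 385 CPM in C6KO libraries of BAT, and the endothelial markers, with 8 of 8 estimates above 0, to 1084 to 1455 CPM in WT and 1560.0 to 1662 CPM in C6KO. The part of either in the members' values was not tested.

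**Figure D2:**
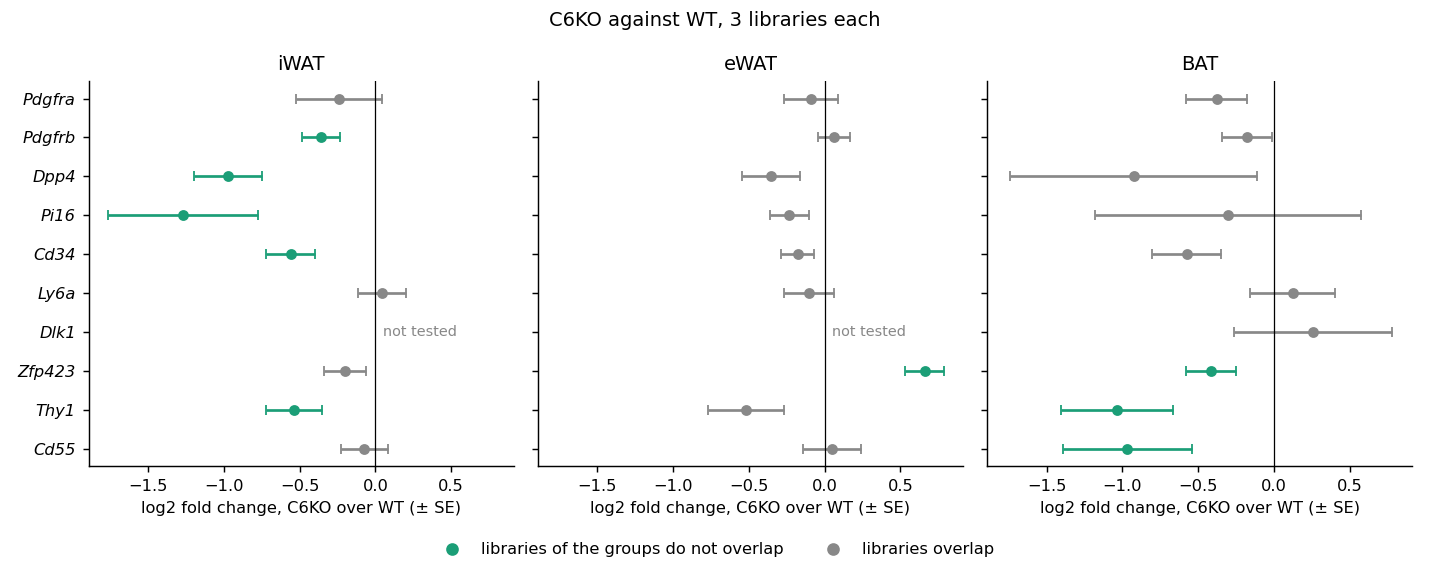
Log2 fold change of C6KO over WT (horizontal axis, ± SE) for each progenitor gene in each depot, from edgeR with 3 libraries per genotype; green marks genes whose WT and C6KO libraries do not overlap and grey those that overlap. In iWAT 5 genes are green and below 0, in eWAT Zfp423 alone is green and lies above 0, in BAT 3 are green and below 0, and none of these was called.

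The C6KO difference of Zfp423 itself differed between eWAT and BAT. In a fit of all 18 libraries the difference in BAT minus that in eWAT was -1.08 on the log2 scale (SE 0.20, adjusted p = 0.0214), and Zfp423 was the only 1 of the 10 members called for any pair of depots. For BAT against eWAT 0.536% of 15866 genes were called in this test. The call was lost on leaving out single libraries: the adjusted p was 0.0504 to 0.0802 without eWAT WT replicate 1, 2 or 3, eWAT C6KO replicate 1, or BAT C6KO replicate 1 or 3, with estimates of -1.11 to -0.94, and the call stood without any of the other 12 libraries.

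For eWAT against iWAT the C6KO difference of Zfp423 was 0.86 higher in eWAT (SE 0.20), with an unadjusted p of 0.000487 and an adjusted p of 0.749. In that comparison 0% of genes were called, while 869 of 15866, or 5.48%, had an unadjusted p below 0.05. For BAT against iWAT it differed by -0.22 (SE 0.20, adjusted p = 0.778), where 0.183% of genes were called. Among the other members the largest estimates of this kind were those of Cd55 for BAT against eWAT (-1.01, SE 0.44, adjusted p = 0.391) and Pi16 for eWAT against iWAT (1.03, SE 0.85, adjusted p = 0.990), so the lower Pi16 and Dpp4 of iWAT were not shown to be particular to that depot.

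The second question was how the depots differ in these genes. Between the white depots of WT mice, Pdgfra was higher and Zfp423 lower in eWAT. Pdgfra was 2.94-fold higher in eWAT than in iWAT (log2 1.55, SE 0.25, adjusted p = 0.000277), and its eWAT libraries of either genotype, at 104 CPM or more, were all above the 61.2 CPM that was its highest elsewhere. Zfp423 was 2.41-fold lower in eWAT (-1.27, SE 0.14, adjusted p = 1.38e-05). These made 1 of 10 called higher, against 12.8% of all genes, and 1 of 10 called lower, against 12.9%.

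Dpp4 had an estimate as large as these, 1.25 (SE 0.49), but an adjusted p of 0.0627, and Pdgfrb at 0.35 (SE 0.13, adjusted p = 0.0487) was under the fold minimum. Dpp4 was called by DESeq2 (1.28, adjusted p = 0.0226), with total counts as the only scaling (1.40, adjusted p = 0.0453) and without BAT WT replicate 1, 2 or 3 (1.25 each, adjusted p = 0.0338, 0.00150 and 0.0426), since all libraries share the estimate of the spread. The estimates of Cd34, Thy1, Cd55, Pi16 and Ly6a between the white depots lay between -0.26 and 0.30. In C6KO mice 3 of 10 were called higher in eWAT, against 14.1%: Pdgfra (1.70, SE 0.25), Dpp4 (1.88, SE 0.50, adjusted p = 0.0106) and Pdgfrb (0.77, SE 0.13, adjusted p = 0.000296). None was called lower, against 10.5%, as Zfp423 at -0.41 (SE 0.14, adjusted p = 0.0354) was under the fold minimum. Cd34, at 0.58 (SE 0.18, adjusted p = 0.0237), sat at the fold minimum and was called without iWAT C6KO replicate 3 (0.74) or eWAT C6KO replicate 1 (0.66).

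Between BAT and iWAT the counts of members called in WT mice were not far from the shares of all genes. In WT mice Cd34 (-0.93, SE 0.19, adjusted p = 0.000678), Zfp423 (-0.91, SE 0.14, adjusted p = 6.89e-05) and Cd55 (-1.19, SE 0.31, adjusted p = 0.00471) were called lower in BAT, 3 of 10 against 18.7% of all genes. Dlk1 was called higher (2.26, SE 0.82, adjusted p = 0.0311), 1 of 10 against 20.1%, a call that was lost without iWAT WT replicate 2 or 3 or BAT WT replicate 3 (estimates of 2.02 to 2.07). Pdgfrb, at -0.54 (SE 0.13, adjusted p = 0.00317), was under the fold minimum, and was called without iWAT WT replicate 2 (-0.62) and with total counts as the only scaling (-0.68). Thy1, at -0.75 (SE 0.31, adjusted p = 0.0560), was called without eWAT C6KO replicate 1 (adjusted p = 0.0450). Without BAT WT replicate 2 Dpp4 (-1.75), Pi16 (-2.05) and Thy1 (-1.19) were called lower as well, making 6 lower and 1 higher, and Cd55 was at -1.87. The share of all genes called without that library is not given here.

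In C6KO mice 4 of 10 were called lower in BAT than in iWAT, against 20.2% of all genes: Cd34 (-0.94, SE 0.19), Cd55 (-2.08, SE 0.32), Thy1 (-1.25, SE 0.32) and Zfp423 (-1.13, SE 0.14). None was called higher, against 18%, as Dlk1 at 1.97 (SE 0.79) had an adjusted p of 0.0504. Dlk1 was called without any one of iWAT C6KO replicate 2, eWAT C6KO replicate 2 or 3, or BAT C6KO replicate 3 (1.97 to 3.05), and Pdgfra, at -0.43, was called without iWAT C6KO replicate 1 (-0.65).

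The widest gap was between BAT and eWAT. In WT mice both PDGF receptor genes, Pdgfra (-1.84, SE 0.26, adjusted p = 1.37e-05) and Pdgfrb (-0.89, SE 0.13), were lower in BAT, as were Dpp4 (-1.71, SE 0.50), Cd34 (-1.13, SE 0.19), Thy1 (-1.05, SE 0.31) and Cd55 (-0.93, SE 0.31). These were 6 of 10 called lower, against 23.6% of all genes, and Dlk1 was the 1 of 10 called higher (3.42, SE 0.88), against 25%. The call of Cd55 was lost without eWAT WT replicate 2 or BAT WT replicate 1 or 3 (adjusted p = 0.0543, 0.0775 and 0.0753), and without BAT WT replicate 2 Pi16 was called lower (-1.92, adjusted p = 0.00427), Dpp4 was at -3.00, Cd55 at -1.61, Thy1 at -1.49, Cd34 at -1.32 and Pdgfra at -2.04. In C6KO mice 7 of 10 were called lower, against 26.5%, and Dlk1 again higher, against 23.6%.

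The 7 were the same 6 and Zfp423, which in C6KO was 1.65-fold lower in BAT than in eWAT (-0.72, SE 0.14, adjusted p = 0.000375) and in WT had been 1.28-fold higher (0.36, SE 0.14, adjusted p = 0.0413, under the fold minimum). Without eWAT C6KO replicate 1 the C6KO value, -0.58, was itself under the fold minimum. So the order of the depots by mean Zfp423 was iWAT, BAT, eWAT in WT and iWAT, eWAT, BAT in C6KO. The WT and C6KO comparisons of a depot pair used different libraries. Ly6a was never called between depots, with estimates of -0.20 to 0.17, and Pi16 was called between none in either genotype while all libraries were kept.

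Markers of other cells differed between the depots as well. In WT mice 9 of 10 macrophage markers were called higher and 7 of 8 adipocyte and 8 of 8 endothelial markers lower in eWAT than in iWAT. In BAT 11 of 12 pan-stromal and 9 of 10 macrophage markers were called lower than in iWAT. Against eWAT, 11 of 12 pan-stromal and 10 of 10 macrophage markers were called lower in BAT and 8 of 8 endothelial markers higher. Their part in the members' values was not tested.

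Dlk1 was the exception among the members, the one highest in BAT. It was at 2.63 to 4.19 CPM in WT BAT, 0.448 to 1.07 CPM in WT iWAT and 0.108 to 0.422 CPM in WT eWAT. In the BAT table its count covered another transcript (NM_010052, 4332 bases) than in the white tables (NR_033813, 4673 bases), so transcript and depot cannot be told apart for it. The other 9 members were counted on the same transcript in every table. Cd55b, the neighbouring near copy of Cd55, had 0 counts in all 18 libraries, while how reads shared by both copies were assigned is not given in the sources used here.

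**Figure D3:**
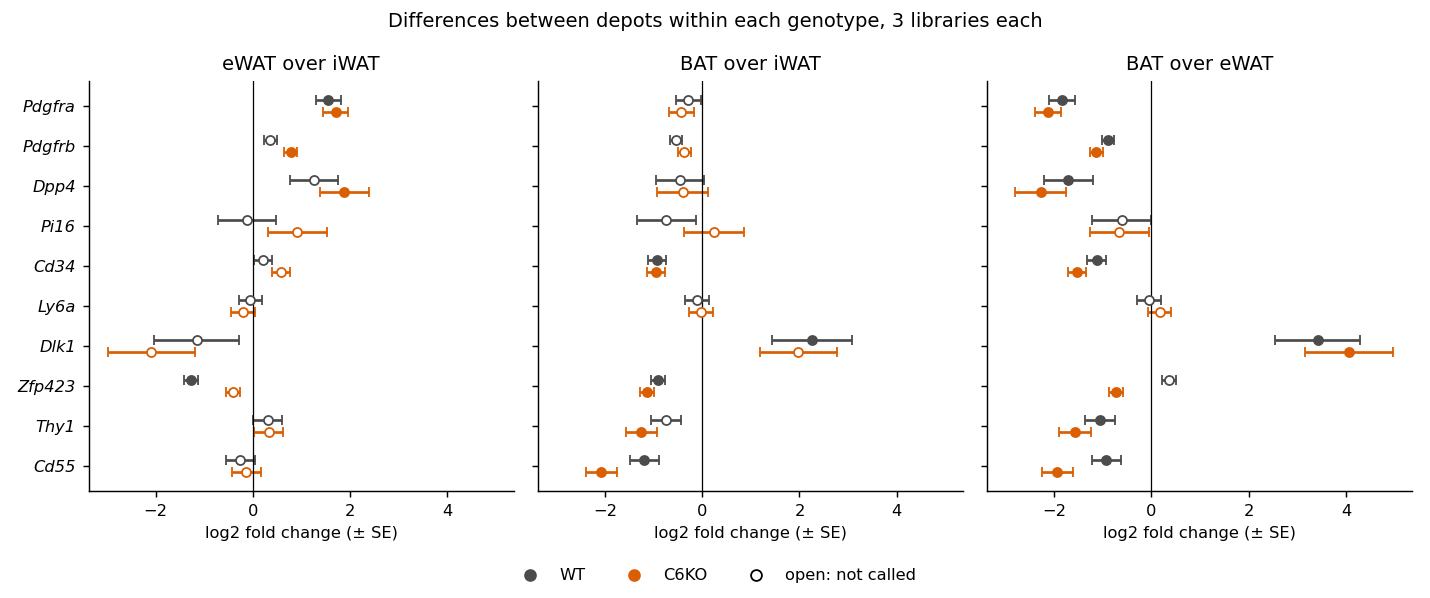
Log2 fold change between depots (horizontal axis, ± SE) for each progenitor gene in WT (grey) and C6KO (orange) mice, from edgeR on 18 libraries; filled points were called and open points were not. Zfp423 lies above 0 in WT and below 0 in C6KO for BAT over eWAT, and Dlk1 alone lies far above 0 for BAT over either white depot.

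Other genes of the progenitor pathway were taken from lists of 10 early progenitor genes, 9 genes of committed preadipocytes, 6 of the adipogenesis regulatory cells that hold differentiation back, 20 regulators of adipogenesis and the 4 PDGF ligands. In iWAT 0 genes of these lists were called, of 10, 9, 6, 19 and 4 tested. The early progenitor list had 8 of 10 estimates below 0 (median -0.28), led by Il13ra1 (-0.77, SE 0.22, adjusted p = 0.175) and Adam12 (-0.76, SE 0.23, adjusted p = 0.186). Of the preadipocyte list, 4 of 9 were below 0, with the smallest p for the matrix gene Col15a1 (-0.87, SE 0.21, adjusted p = 0.158) and Gpc3 (-0.92, SE 0.36, adjusted p = 0.257). The other 5 were above 0, the median was 0.02, and the list's sum was higher in every C6KO library (24468 to 26952 CPM) than in any WT one (19401 to 23126 CPM). As the list holds Pparg, Fabp4, Cd36 and Aoc3, which mature adipocytes make too, its sum cannot tell preadipocytes from adipocytes. The regulators had a median of 0.16, with Ebf1 at 0.55 (SE 0.18, adjusted p = 0.198) and Ccn5 at 1.69 (SE 0.78, adjusted p = 0.344), and the regulatory cell list one of 0.17, with Igfbp3 at 1.53 (SE 0.63) and F3 at 0.28 (SE 0.15). Over the libraries left out Ccn5 spanned 0.33 to 2.15 and Igfbp3 0.40 to 1.89. The regulatory cell list summed to 1094 CPM in iWAT C6KO replicate 1, against 380 and 430 CPM in C6KO replicates 2 and 3 and 283 to 399 CPM in WT.

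Alternatives did call some of these genes in iWAT. DESeq2 called Adam12 (adjusted p = 0.0377) and Col15a1 (0.00406), and the fit of all 18 libraries called Il13ra1 (0.0321). Without iWAT C6KO replicate 3 edgeR called Il13ra1 (-1.03), Adam12 (-1.12) and Col15a1 (-1.09) lower and Ebf1 (0.70) higher.

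In eWAT 2 genes of these lists rose in C6KO. Sfrp5, which encodes a secreted antagonist of Wnt made by adipocytes, was at 194, 150.1 and 246 CPM in WT and 533, 381 and 426 CPM in C6KO (1.19, SE 0.20, adjusted p = 0.0436). Aoc3, which encodes an amine oxidase of preadipocytes and adipocytes, was at 689.7, 595 and 683 CPM in WT and 1134, 965 and 990.05 CPM in C6KO (0.66, SE 0.12, adjusted p = 0.0493). In the fit of all 18 libraries neither was called (adjusted p = 0.415 for Sfrp5 and 0.131 for Aoc3), and Aoc3 was not called with DESeq2 size factors (0.0506) or total counts (0.0501). Both calls stood without C6KO replicate 2 and were lost without any other single library of eWAT, with adjusted p of up to 0.168 for Sfrp5 and up to 0.194 for Aoc3. Of the adipocyte markers Lipe (0.72, SE 0.12, adjusted p = 0.0432) and Plin1 (0.62, SE 0.11, adjusted p = 0.0468), genes of lipolysis and the lipid droplet, also rose, 2 of 8 called and 8 of 8 above 0, with both calls lost without the same 5 libraries (adjusted p of up to 0.190) and in the fit of all 18 libraries (0.0895 and 0.125), and that of Plin1 also with total counts (0.0501).

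The other genes of these lists that led in eWAT were Il13ra1 (-0.46, SE 0.13, adjusted p = 0.113), Dact2 (0.57, SE 0.30), Gdf10 (-0.48, SE 0.13, adjusted p = 0.0964) and Clec11a (-0.71, SE 0.28). The early progenitor list split evenly, with 5 of 10 estimates above 0. Among the PDGF ligands, which signal through Pdgfra and Pdgfrb, the members with the smallest p were Pdgfd and Pdgfa in eWAT (0.12, SE 0.12, and 0.13, SE 0.20) and Pdgfc and Pdgfd in iWAT (-0.33, SE 0.24, and 0.11, SE 0.13).

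In BAT 0 genes of these 5 lists were called, with 7 of 8 early progenitor, 7 of 9 preadipocyte and 4 of 4 PDGF ligand estimates below 0. The smallest p of each list belonged to Anxa3 (-0.70, SE 0.19) and Adam12 (0.41, SE 0.18), Col15a1 (-1.39, SE 0.51) and Aoc3 (-0.49, SE 0.21), F3 (-0.63, SE 0.20) and Fmo2 (0.60, SE 0.29), Ccn5 (-2.07, SE 0.44, adjusted p = 0.0626) and Sox9 (-1.31, SE 0.37, adjusted p = 0.144), and Pdgfd (-0.70, SE 0.27) and Pdgfa (-0.65, SE 0.26). DESeq2 called Col15a1 (adjusted p = 0.0215) and Ccn5 (0.000710), the fit of all 18 libraries Col15a1 (0.0346), Anxa3 (0.0424) and F3 (0.0433), and Ccn5 was also called with no filter on low counts (0.0261) and without BAT WT replicate 3 (0.0480).

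Genes that mark the stroma as a whole did fall in BAT: of the pan-stromal list Prrx1 (-1.42, SE 0.18, adjusted p = 0.00960), which encodes a homeobox factor of fibroblasts, Col3a1 (-1.70, SE 0.22, adjusted p = 0.00972) and Lum (-1.14, SE 0.19, adjusted p = 0.0249), matrix genes, were called, and 11 of 11 estimates were below 0. Without BAT WT replicate 2 these 3 were called still, at -1.27, -1.57 and -1.07, while all 3 calls were lost without BAT C6KO replicate 1 or 3, those of Prrx1 and Lum also without BAT C6KO replicate 2, and that of Lum without BAT WT replicate 1 and in the fit of all 18 libraries (adjusted p = 0.138).

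Marker genes of other cells moved in BAT too. Of the macrophage list Adgre1 (-1.79, SE 0.22), Cd68 (-2.01, SE 0.25) and Lyz2 (-1.40, SE 0.23) fell, 3 of 10 called. Lep, the adipocyte hormone, fell by 3.35 on the log2 scale (SE 0.41, adjusted p = 0.0146), in a list of 8 adipocyte markers with 6 estimates above 0 and a median of 0.09, and the mesothelial marker Lrrn4 rose (2.41, SE 0.41, adjusted p = 0.0282), the 1 gene of its list that could be tested. Each of these calls except that of Lep was lost without BAT C6KO replicate 3, that of Lep without BAT WT replicate 1 or C6KO replicate 2, that of Adgre1 also without C6KO replicate 2, and those of Lyz2 and Lrrn4 without any library but BAT WT replicate 2. Their part in the members' values in BAT was not tested.

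Within groups the members did not vary as one. After the mean of each group was taken away, Pearson's r of log2 CPM over the 18 libraries was 0.85 for Dpp4 and Pi16, 0.78 for Cd34 and Thy1 and 0.77 for Dpp4 and Cd55. These values describe libraries that share depth and tissue makeup, and they rested in part on BAT WT replicate 2. Without it, a setting chosen after seeing the data, r over 17 libraries was 0.64, 0.69 and 0.22 for these pairs, and the highest r was that of Ly6a and Thy1, 0.74, which with all libraries was 0.22. As the Pi16 sequence printed earlier held none of the 3 motifs, it could share none with that of Dpp4. Shared control of these genes was not tested.

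**Figure D4:**
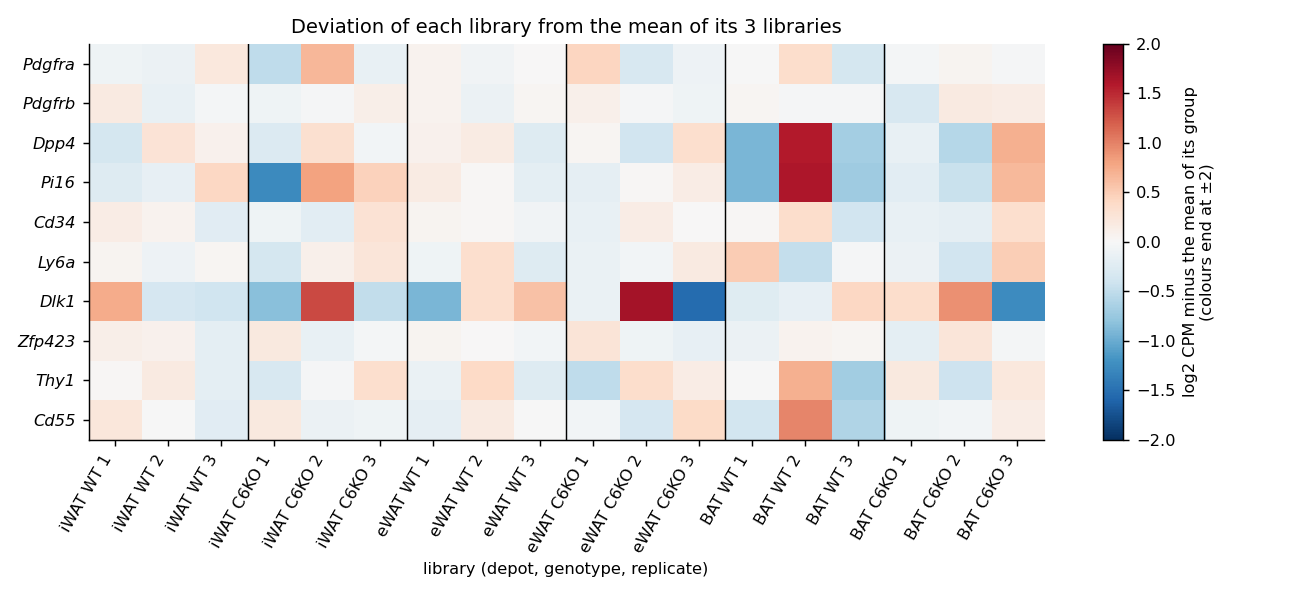
Each library's log2 CPM of a progenitor gene minus the mean of its group of 3 (colour, ending at ±2), with genes as rows and libraries as columns, a line between groups. BAT WT replicate 2 is high for Dpp4, Pi16, Cd55 and Thy1 together, iWAT C6KO replicate 1 is low for Pi16, and Dlk1, with at most 67 counts, scatters most.

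The genes most like each member across all 18 libraries, by Pearson's r of log2 CPM among 14173 genes, are given as a description of libraries that differ in depot. For Zfp423 they were Ehd2 (r = 0.95), Stim2 (0.94) and Cd164 (0.94), for Pdgfra Cyp1b1, Col6a5 and Snx30 (0.95 each), and for Pdgfrb Tnfsf12 (0.98), Gpr137b (0.97) and S1pr2 (0.97). For Cd34 they were Lrrn2 (0.98), Mmp14 (0.97) and Emb (0.97), and for Thy1 Dapp1 (0.94), Cd34 itself (0.94) and Tmem252 (0.93). Dpp4 was nearest to Parp8 (0.97), Itgb7 (0.96) and Rassf5 (0.95), and Cd55 to Gca, Rtl6 and Evc2 (0.96 each).

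The other 3 members had weaker or less certain neighbours. Pi16 was nearest to B3galt1 (0.84), Prdm8 (0.81) and Sema3d (0.81), Ly6a to Sf3b5 (0.75), Lag3 (0.74) and Rad9a (0.73), and Dlk1, with its few counts, to Slc25a48, Gid8 and Mrpl49 (0.91 each).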

How the data were processed

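RNA of iWAT, eWAT and BAT was measured in 18 libraries, grouped by depot and genotype from the sample labels. The authors purified poly(A) RNA, aligned reads to mm10 with STAR and counted exons with HOMER, 1 transcript per gene; strandedness, annotation and versions are not given in the sources used here. The deposited tables, 1 per depot, hold raw counts and transcript lengths, with no normalization.

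Counts were tested with edgeR 4.0.16 (R 4.3.3): filterByExpr, TMM, robust quasi-likelihood, 3 against 3 libraries within a depot, and all 18 in 1 fit for differences between depots and for interaction terms. The genes named were the 10 members, Casp6, Cd55b, up to 4 called genes of each list (for the 5 progenitor pathway lists, the 2 with the smallest p where none was called in C6KO against WT) and the 3 genes most correlated with each member. The rule would also name genes of the lists between depots, and of marker lists with no call, which were left out. Members, lists and rules were chosen with earlier results of these data known. The test was checked on simulated data, with results not given here. Alternatives were DESeq2 1.42.0, its size factors, total counts, no filter, the 18-library fit, genes with 1 shared transcript, the replicate number as a block and leaving out each library. No 2 libraries of the same depot and genotype matched within sampling noise (chi-square per degree of freedom of at least 9.06), and pairs across groups were not compared. As the labels do not say which libraries share an animal, p-values measure the spread between libraries. Log2 values for correlations used a prior count of 1. Figures used matplotlib 3.10.9.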

Additional observations from a re-analysis of the deposited data

Results flagged for a closer look

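The C6KO difference of Zfp423 was called as different between BAT and eWAT. Its value in BAT minus that in eWAT was -1.08 on the log2 scale (edgeR interaction term, adjusted p = 0.0214), with all 3 C6KO libraries above WT in eWAT and all 3 below WT in BAT. Within either depot edgeR did not call it (adjusted p = 0.0527 in eWAT and 0.328 in BAT). The interaction call was lost without some single libraries, as given above (adjusted p of up to 0.0802).

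By the same test 3 genes of the related and marker lists differed between depots. Aoc3 differed by -1.14 for BAT against eWAT (adjusted p = 0.0233), and this call was lost without any one of eWAT WT replicates 1, 2 and 3, eWAT C6KO replicate 1 and BAT C6KO replicates 1 and 3 (adjusted p of up to 0.0928). Prrx1 differed by -1.88 for BAT against eWAT (adjusted p = 0.00242). Lep differed by -3.87 for BAT against eWAT (adjusted p = 0.00152) and by -3.14 for BAT against iWAT (adjusted p = 0.0105), a call that was lost with the replicate number as a block (adjusted p = 0.0640).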

How the results depend on the processing

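Of the 91 member values in the comparisons, 56 kept their direction and their side of the threshold in every alternative tried, and 74 kept their direction. The number of members called in C6KO moved from 0 to 1 in iWAT with DESeq2 and in eWAT with DESeq2, with no filter on low counts and with the replicate number as a block (Zfp423). Leaving out 1 library gave 0 to 2 in iWAT, 0 to 1 in eWAT, 3 to 7 for BAT against iWAT in WT (4 with all libraries) and 0 to 1 for the interaction term of BAT against eWAT (1 with all libraries). The shares of all genes called in these alternatives are not given here, and the cause of these changes was not tested. Same-numbered libraries did not deviate together in every pair: their mean r was -0.00198 to 0.118 between depots of a genotype, above that of other libraries in 5 of 6 pairs of depots, and -0.263 to 0.0662 between genotypes. As the labels do not say what the numbers share, they were not taken to pair the samples. The replicate block changed the call of 10 of 133 values, 7 gained and 3 lost, the gained ones including Dpp4 for eWAT against iWAT in WT (1.28, adjusted p = 0.0331) and Thy1 for BAT against iWAT in WT (-0.84, adjusted p = 0.00975).

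The sign of values near 0 reversed as follows, with no cause tested. With total counts as the only scaling Ly6a was at -0.0175 for C6KO in iWAT, 0.0939 for eWAT against iWAT in WT and -0.0873 for BAT against eWAT in C6KO, Pi16 at 0.0178 for eWAT against iWAT in WT, and Cd55 at 0.0398 for eWAT against iWAT in C6KO. With the replicate block Pi16 was at 0.21 for C6KO in BAT. Over the libraries left out, C6KO differences spanned -0.19 to 0.0528 for Cd55 and -0.0979 to 0.19 for Ly6a in iWAT. In eWAT they spanned -0.18 to 0.21 for Cd55, -0.22 to 0.0950 for Ly6a, -0.0552 to 0.30 for Pdgfa and -0.33 to 0.0762 for Pdgfra. In BAT they spanned -1.36 to 0.40 for Dpp4, -0.70 to 1.05 for Pi16, -0.15 to 0.41 for Ly6a and -0.24 to 0.68 for Dlk1. Between depots Pi16 spanned -0.25 to 0.12 for eWAT against iWAT in WT and -0.16 to 0.64 for BAT against iWAT in C6KO, and Cd55 -0.36 to 0.0151 for eWAT against iWAT in C6KO. Ly6a spanned -0.24 to 0.0704, -0.39 to 0.11 and -0.34 to 0.16 for eWAT against iWAT, BAT against iWAT and BAT against eWAT in WT, and -0.32 to 0.14 and -0.12 to 0.34 for the last 2 in C6KO. BAT had the lowest depth and, at a common biological coefficient of variation of 0.32, the widest spread.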
